A study of Sus scrofa with 2 samples.

Results

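Expression of 5 genes of granulosa cell regulation was followed between a pair of single porcine cumulus-oocyte complexes (COCs): the transcription regulators NR5A2, NR0B1 and GATA6, and the progesterone receptor membrane components PGRMC1 and PGRMC2. They were taken by gene symbol from the annotation of the array, which named 18121 of 43794 transcript probes and 11938 genes. The 5 genes had 6 probes: PGRMC2 had 2 and each of the other genes had 1. The set was drawn up with earlier results of the same arrays in view, so the members were selected on the contrasts and dye parts given here, and these values are a description with no test.

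Each COC, named COC7 and COC4 in the labels, was an oocyte with its surrounding cumulus cells from a mature follicle of a Large White gilt. Its RNA was amplified, labelled with a fluorescent dye and hybridised together with that of the other COC. Cy5 was on COC7 and Cy3 on COC4 for array 1, and the other way round for array 2. The labels give no treatment, and the COCs were not assigned to different conditions. With 1 COC on each side, and both arrays made from the same RNAs, there was 1 comparison and no test of a difference between COCs was possible.

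NR5A2 and NR0B1 are orphan nuclear receptors with opposing actions on steroid synthesis. NR5A2 activates genes of the steroid pathway in granulosa and luteal cells and is needed in mouse for ovulation and cumulus expansion, whereas NR0B1 represses transcription driven by the NR5A family. GATA6 is a zinc finger factor that, with GATA4, activates promoters of steroid enzymes and inhibin in the ovary. PGRMC1 and PGRMC2 are membrane proteins with a cytochrome b5-like domain that binds haem. PGRMC1 is needed for the anti-apoptotic response of granulosa cells to progesterone in rodents, although neither protein is related in sequence to the nuclear progesterone receptor.

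The deposited values were log2 ratios of one dye over the other. For each probe the ratio of array 2 was turned in sign and averaged with that of array 1, which gives the contrast between the COCs. The mean of both deposited ratios, unturned, gives the dye part, the portion that kept its sign when the dyes were exchanged. After each ± stands how far either array lay from the contrast (n = 2 arrays of 1 pair of COCs). It is the dye part without its sign, so the ± and the dye part are 1 measure given in different forms. It covers hybridisation and labelling, not the spread among COCs. A dye effect and the noise of the arrays cannot be told apart in it. The methods do not say which dye was the numerator. If it was Cy5, a negative contrast means more of that RNA in COC4. If it was Cy3, a negative contrast means more in COC7. Which genes had opposite contrasts does not depend on this. The same dye was the numerator on both arrays as far as the spike-in probes show, since 10 of 10 spike-in sequences had the same sign of deposited ratio on each.

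NR5A2 had the widest contrast of the 5 genes. Its deposited log2 ratio was -0.74 on array 1 and 1.49 on array 2, so it changed sign with the dyes. The contrast was -1.12 ± 0.37, a 2.17-fold difference between the COCs (1.67-fold on array 1 and 2.81-fold on array 2). It was the only member past 2-fold, and across the array 0.174% of transcript probes (76 of 43794) were past it. As many as 46 probes, 0.105% of all, lay at least as far from 0 as that of NR5A2, and so did 11 named genes, NR5A2 included. On array 1 alone the probe fell short of 2-fold. Its dye part was 0.37, and 10.9% of probes had one as large. No member reached 2-fold on both arrays, which 14 probes did in all.

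NR0B1 had the only positive contrast among the members. Its deposited ratio was 0.88 on array 1 and -0.59 on array 2. The contrast was 0.73 ± 0.14, a 1.66-fold difference (1.84-fold on array 1 and less on array 2). On the whole array 316 probes (0.722%) and 92 named genes lay as far from 0. NR5A2 and NR0B1 were thus the 2 members past 1.5-fold, where 1.70% of all probes lay, and their RNAs differed in opposite directions between the COCs. The log2 contrast of NR5A2 minus that of NR0B1 was -1.62 on array 1 and -2.08 on array 2. The mean of -1.85 equals a 3.60-fold change in the ratio of NR5A2 RNA to NR0B1 RNA from one COC to the other. It spans the whole range of the 5 genes, which were selected with these contrasts known. Each of the 2 genes had 1 probe, and whether the balance of activator and repressor differed was not tested.

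GATA6 moved in the same direction as NR5A2, by less. Its deposited ratio was -0.61 on array 1 and 0.31 on array 2. The contrast was -0.46 ± 0.15 (1.37-fold), and 3.44% of probes lay as far from 0. NR5A2 minus GATA6 was -0.13 on array 1 and -1.18 on array 2, so the distance between these genes rested mainly on array 2. For each of the 3 regulators the contrast was larger than the dye part, which their selection on both values favours. How many of all probes had such a ratio was not analysed here. The contrast was 2.98 times the dye part for NR5A2, 5.09 times for NR0B1 and 3.07 times for GATA6.

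**Figure D1:**
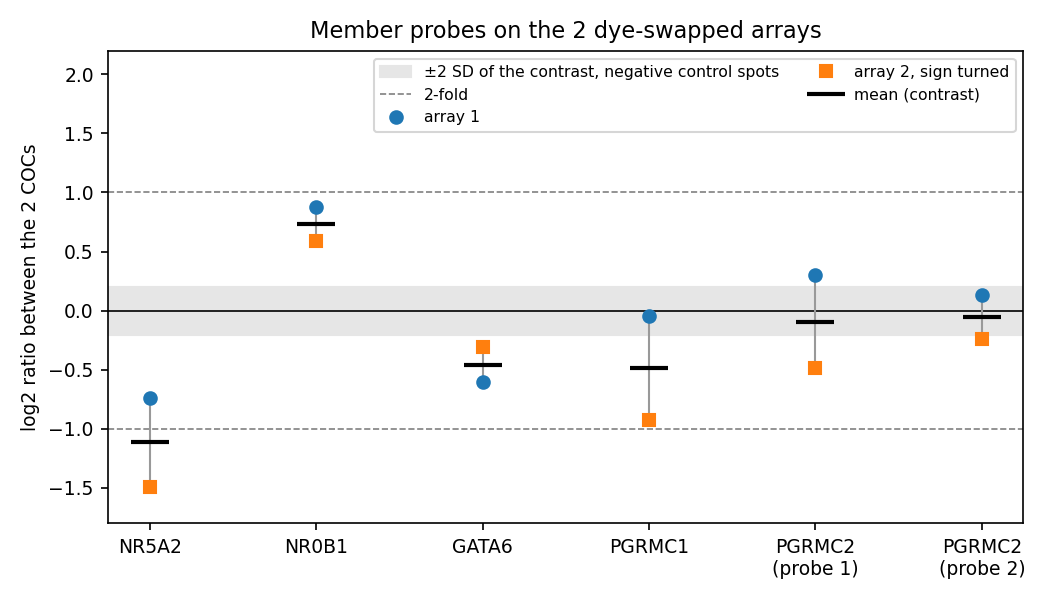
Turned log2 ratio of each of the 6 member probes on array 1 and array 2 (points), with the contrast as their mean (bar), the 2-fold lines (dashed) and 2 SDs of the negative control spots on each side of 0 (band). Both points lie on one side of 0 for NR5A2, NR0B1, GATA6 and PGRMC1, although PGRMC1 is at -0.043 on array 1, and the points of both PGRMC2 probes lie on opposite sides.

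The progesterone receptor membrane components were less settled by the dye exchange. PGRMC1 had a deposited ratio of -0.043 on array 1 and 0.93 on array 2. Its contrast was -0.48 ± 0.44 (1.40-fold), but this was 1.03-fold on array 1 and 1.90-fold on array 2. The dye part was 0.44, and only 7.06% of probes had one as large, against 2.93% with a contrast as far from 0. The size of the PGRMC1 difference was therefore set almost wholly by 1 array.

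PGRMC2 showed no repeatable direction. The first probe had deposited ratios of 0.30 and 0.49, and the second 0.13 and 0.24, so neither changed sign with the dyes. Their contrasts were -0.094 ± 0.40 and -0.056 ± 0.19, and 47.1% and 66.0% of probes lay as far from 0. Averaged over both probes the gene was at -0.075 ± 0.29 (1.05-fold). The contrasts of the probes differed by 0.038, where the median difference over 1787 genes with exactly 2 probes was 0.13. PGRMC1 minus PGRMC2 was -0.26 on array 1 and -0.56 on array 2, with a mean of -0.41 (1.33-fold), negative on both arrays even though PGRMC2 itself was not.

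Taken by probe, 4 of the 6 members had the same sign of turned ratio on both arrays, as did 37.1% of all probes. Both were negative for 3 members (18.4% of all probes) and positive for 1 (18.7%). The 2 that did not were those of PGRMC2. By gene, 4 of 5 had a contrast below 0, beside 48.0% of all named genes. The median contrast of the 5 genes was -0.46, whereas that of all named genes was 0.0062. Deposited ratios gave a positive dye part for 5 probes, 2 of them of PGRMC2, and a negative one for GATA6 alone, -0.15. The median dye part of all transcript probes was 0.0060, and the share with a positive one was not analysed here. Since the genes were selected with these values known, the counts describe them and nothing more.

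**Figure D2:**
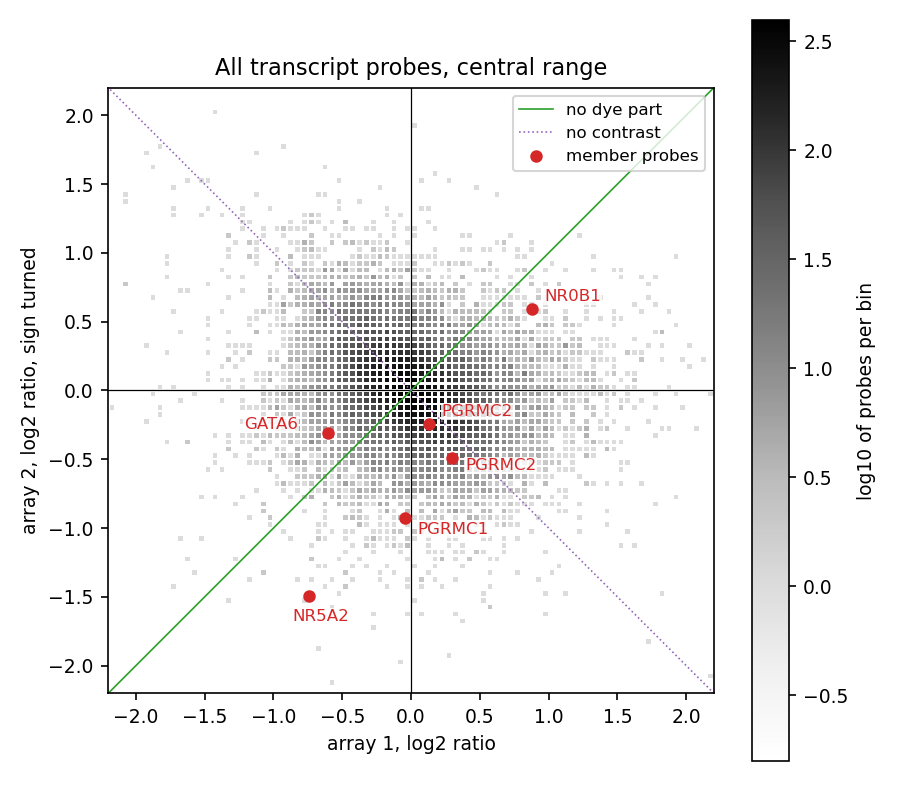
Turned log2 ratio on array 1 (x axis) against array 2 (y axis) for the transcript probes of the central range in bins (shade, log10 of the number of probes), with the 6 member probes as labelled red points. NR5A2 lies low in the lower left, NR0B1 in the upper right, GATA6 in the lower left, PGRMC1 beside the vertical zero line and both PGRMC2 probes in the lower right, where the signs are opposite.

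Spots that should carry no COC signal gave a scale for these values. Over 153 negative control spots the contrast had an SD of 0.10 and reached 0.30 from 0. Over 604 dark corner spots the SD was 0.11 and the farthest lay at 0.88. Over 320 spike-in spots the SD was 0.14, the median 0.14 and the farthest at 0.51. The farthest dark corner spot thus lay beyond NR0B1, and the farthest spike-in spot beyond PGRMC1 and GATA6. In SDs of the negative control spots, NR5A2 was 11.0 from 0, NR0B1 7.22, PGRMC1 4.77 and GATA6 4.51. The PGRMC2 probes were at 0.926 and 0.550. Past 2 of these SDs lay 4 members and 17.9% of all probes. Negative control spots are dim and may scatter differently from a probe with signal. Spots that repeated one spike-in sequence had an SD of 0.064 in contrast and 0.12 in dye part. Repeat spots measure the printing and scanning of 1 hybridisation pair only. The slide part around each probe was near 0, with a median contrast between -0.033 for the first PGRMC2 probe and 0.071 for NR0B1 over the 6 probes. Signal strength was not analysed here.

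**Figure D3:**
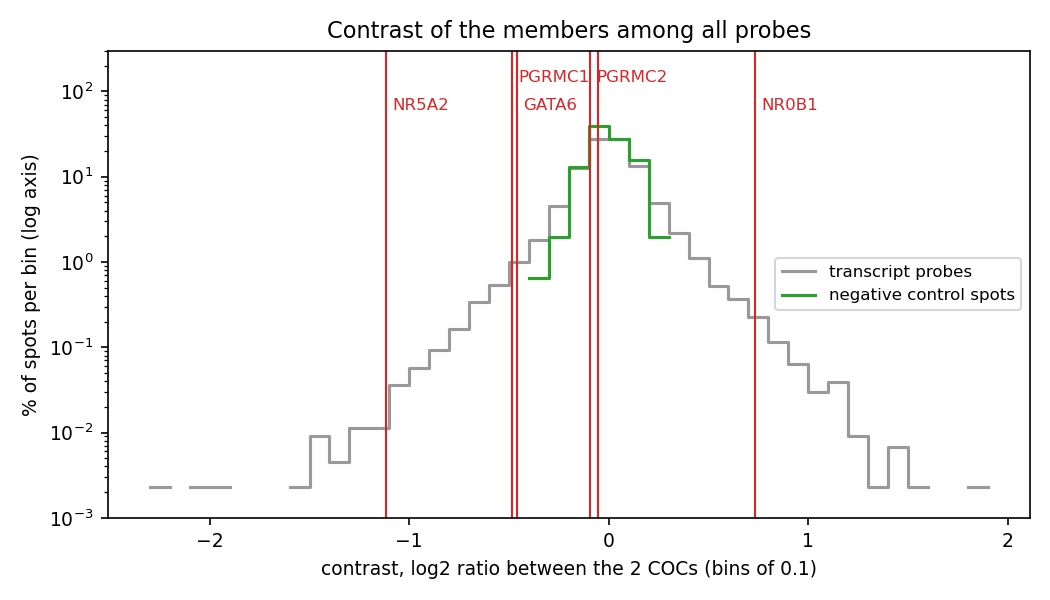
Percent of spots per bin of contrast (log axis; x axis in log2 units), in grey for transcript probes and in green for negative control spots, with vertical lines at the 6 member probes. NR5A2 at -1.12 lies far in the negative tail, NR0B1 at 0.73 in the positive one, GATA6 and PGRMC1 close together at -0.46 and -0.48, and both PGRMC2 probes in the body of the distribution.

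Near relatives of the regulators were closer to 0, which the selection of the members on their contrasts already favours. NR5A1, the other receptor of the NR5A family and the main activator of gonadal steroid enzymes, had a contrast of -0.15 ± 0.14 over 2 probes. NR5A2 minus NR5A1 was -0.45 on array 1 and -1.48 on array 2. NR0B2, which like NR0B1 lacks the usual DNA-binding domain and acts as a repressor, was at -0.018 with opposite signs on the arrays. NR0B1 minus NR0B2 was 0.94 and 0.56, close to the values of NR0B1 itself. Among the GATA factors GATA2 was at 0.25 ± 0.064, opposite in sign to GATA6 on both arrays. GATA3 was at -0.082 and GATA5 at -0.0060. GATA1 and GATA4 were not named by the annotation and were not analysed here.

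NENF, a secreted protein with the same cytochrome b5-like domain as the PGRMC proteins, had a contrast of 0.60 ± 0.16 (1.51-fold; 0.75 on array 1 and 0.44 on array 2). PGRMC1 minus NENF was -0.80 and -1.37, with a mean of -1.08 (2.12-fold). PGRMC1, PGRMC2 and NENF thus held a negative, a near-zero and a positive contrast, the negative one resting almost wholly on array 2. CYB5D2, planned as another relative, was not named by the annotation and was not analysed here.

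A wider list of transcription regulators of steroid-producing cells had 34 of 43 genes measured. Contrasts split evenly, 17 negative and 17 positive, and their median was 0.0051, close to the 0.0062 of all named genes. Signs were opposite between the arrays for 20 of the 34. NR5A2 and NR0B1 were the genes past 1.5-fold, which 1.93% of all named genes passed. NR2F2, an orphan receptor of theca and stromal cells, fell just short of it at -0.58 ± 0.15 (-0.43 and -0.74). Apart from NR0B1, the highest genes with the same sign on both arrays were NCOR1 at 0.094 and PROX1 at 0.092. NCOR1, a corepressor of nuclear receptors, was only at 0.0077 on array 2. PROX1 is a homeobox factor that can repress NR5A2 targets in liver. Among the 4 genes of this list that kept a positive sign, NR0B1 at 0.73 was the highest, which its selection on this contrast favours.

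The list of progesterone receptors and their partners had 23 of 33 genes measured, of which 14 had a negative and 9 a positive contrast. Their median was -0.037. Past 1.5-fold were NENF and CYP51. CYP51, a lanosterol demethylase of the cholesterol pathway and one of the cytochromes P450 that PGRMC1 binds, had -0.96 on array 1 and -0.26 on array 2, a contrast of -0.61 ± 0.35. The annotation also held CYP51A1, another symbol for the gene, at -0.18. Among chaperones of the nuclear receptor HSP90AB1 was at -0.23 ± 0.19, PTGES3 at -0.21 ± 0.20 and STIP1 at 0.031. HSP90AB1 and PTGES3 were below 0 on both arrays, but barely so on array 1, at -0.039 and -0.0097. HSP90AA1, FKBP4 and FKBP5 had opposite signs on the arrays.

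Receptors that bind progesterone directly had no common direction. PGR, the nuclear receptor, had turned ratios of 0.49 on array 1 and -0.49 on array 2, a contrast of -0.0028, so its value was all dye part. The membrane receptors of the PAQR family were at 0.16 ± 0.037 for PAQR7, -0.16 ± 0.015 for PAQR8, 0.29 ± 0.83 for PAQR5, 0.065 ± 0.11 for PAQR6 and -0.26 ± 0.32 for PAQR9. PAQR7 and PAQR8 alone among these 6 receptors kept their sign, in opposite directions. SERBP1, the RNA-binding partner of PGRMC1 in granulosa cells of rodents, was at 0.066 ± 0.26 with opposite signs.

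The list of enzymes of steroid synthesis and products of granulosa cells had 25 of 40 genes measured. Whether the regulators act on these genes in the COCs was not tested. Negative contrasts were 14 and positive ones 11. The median was -0.057, but it was -0.17 on array 1 and 0.087 on array 2, and 15 of 25 had opposite signs. Of those with one sign on both arrays, 7 were negative and 3 positive. AKR1CL1, an aldo-keto reductase of the family that inactivates progesterone, had -0.93 and -1.26, a contrast of -1.10 ± 0.17 (2.14-fold) almost equal to that of NR5A2. SCARB1, the receptor that takes up cholesterol from lipoproteins and a known NR5A2 target in mouse, was at -0.39 ± 0.035. HSD17B10, a mitochondrial hydroxysteroid dehydrogenase, was at -0.38 ± 0.26. STAR, which moves cholesterol into mitochondria, was at -0.13 ± 0.038, and HSD3B1, which makes progesterone, at -0.25 ± 0.18. Each was below 0 on both arrays, HSD3B1 at only -0.071 on array 2. TSPO, FDXR, CYP17A1, HSD17B1 and HSD17B7 of the same list had opposite signs on the arrays. STAR, HSD3B1 and these genes were added after their values were seen.

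On the positive side of the enzyme list LIPE, the lipase that frees cholesterol from its esters, was at 0.46 ± 0.31, and the cholesterol carriers STARD3 and STARD4 were each at 0.13. INHA, the inhibin alpha subunit and a target of GATA factors and NR5A2, had -2.70 on array 1 and 0.97 on array 2. Its contrast of -0.86 ± 1.83 was past 1.5-fold, but the arrays gave opposite signs. CYP11A1, CYP19A1 and FDX1 were not named by the annotation and were not analysed here.

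Gonadotropin and growth factor receptors of granulosa cells had 22 of 25 genes measured, of which 10 were negative and 12 positive. Their median was 0.017. Of these 15 had opposite signs on the arrays. Those lowest among genes with one sign were BMPR1B at -0.26 ± 0.25 (-0.017 on array 1), ACVR2A at -0.18 ± 0.015 and LHCGR at -0.14 ± 0.023. BMPR1B is a receptor for oocyte-made bone morphogenetic proteins, ACVR2A an activin receptor and LHCGR the receptor for luteinising hormone. ACVR1 at 0.20 ± 0.12, IGF2R at 0.17 and ACVR2B at 0.13 were the highest. No receptor gene came near the contrast of NR5A2 or NR0B1, which were selected with their contrasts known.

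**Figure D4:**
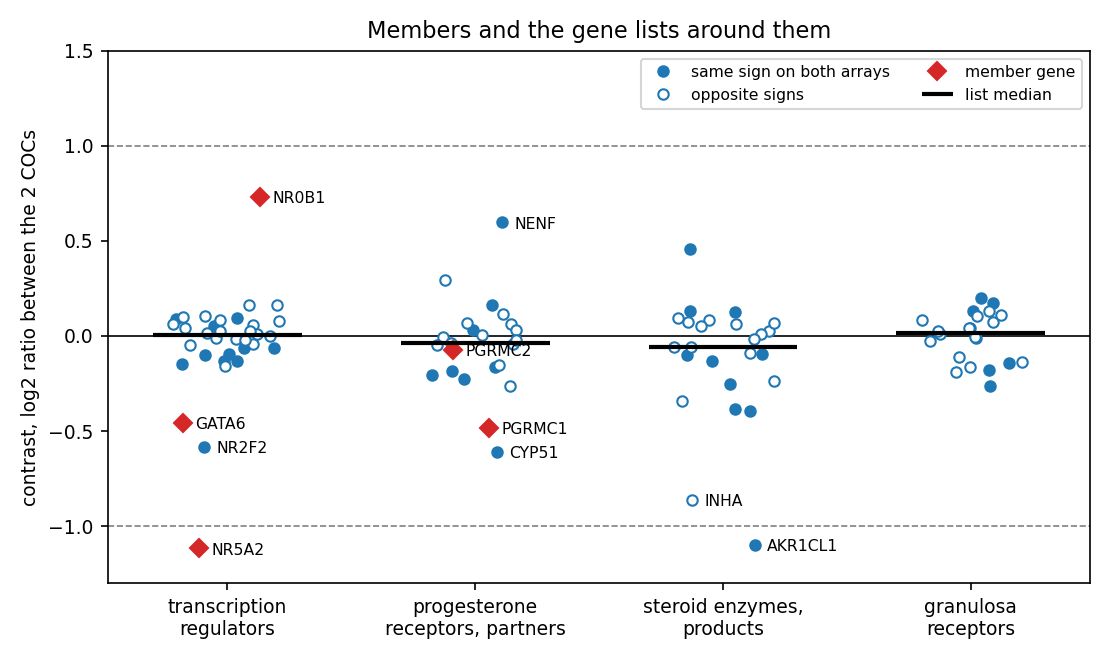
Contrast (log2) of every measured gene in each list, with the list median (bar) and the 2-fold line (dashed); red diamonds are the members whatever their signs on the arrays, filled points are other genes with one sign on both arrays and open points those with opposite signs. Each of the 4 lists drawn has genes on both sides of 0 and more open points than filled ones. NR5A2 is the lowest and NR0B1 the highest of the regulators, and both were selected with their contrasts known.

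A COC holds an oocyte and cumulus cells, and in RNA from the whole complex fewer cells of a type and less RNA per cell cannot be told apart. Of the cumulus and granulosa markers 10 of 12 were measured, 6 of them negative and 4 positive, and 8 had opposite signs on the arrays. Their median contrast was -0.045 (-0.28 on array 1 and 0.25 on array 2). Of the oocyte markers 10 of 14 were measured, 2 of them negative and 8 positive, and 7 had opposite signs on the arrays. The oocyte median was 0.14 (-0.095 and 0.52). Oocyte markers with one sign on both arrays were ZAR1 at 0.70 ± 0.20, FIGLA at 0.56 ± 0.069 and NPM2 at 0.47 ± 0.37. Of the markers of vessels and stroma 7 of 9 were measured, 4 of them negative and 3 positive, and their median was -0.0098. Those with one sign on both arrays were RGS5 of pericytes at -2.13 ± 0.91, DCN of fibroblasts at -0.39 ± 0.11 and TEK of endothelium at 0.022, while PECAM1, VWF, ACTA2 and COL1A1 had opposite signs. Theca markers had a median of -0.059 over 4 genes and blood markers 0.025 over 4. The part of these cell types in the contrasts of the members was not tested.

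The genes nearest to each member were found from the distance between their turned ratios over the 2 arrays, in log2 units. NR5A2 had 0 other named genes within 0.1. Its nearest was VCAN, the versican of the cumulus matrix, at a distance of 0.13 with -0.81 and -1.39, followed by PLAT, the tissue plasminogen activator, at 0.24 and the membrane protein PERP at 0.26. NR0B1 had 3 genes within 0.1, which were PPIE, RNF25 and GLRX5. PGRMC1 had 2, OPCML at 0.020 and SAP30BP at 0.098, and TM4SF1 followed at 0.10.

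GATA6 had 24 genes within 0.1, the nearest being OXSM at 0.0068, HMGCS1, an enzyme of cholesterol synthesis, at 0.028 and CTSA at 0.040. PGRMC2 had 179, led by GGTA1 at 0.013, ARMCX3 at 0.014 and GULP1 at 0.014. With 2 arrays of 1 pair of COCs, nearness means a like ratio on each array, and the count of neighbours follows how far a gene lies from the bulk.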

How the data were processed

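RNA of 2 single COCs was compared on 2 dye-exchanged arrays of a porcine oligonucleotide platform. Spots were scanned, and the log2 ratios of one channel over the other were normalised and deposited by the authors. The labels do not give the normalisation, the centring or the numerator. The base was taken as log2. Array medians were 0.0030 and 0.0014. The ratios also stood in a table of all spots, where 43794 probes were equal to the main values when placed on the slide by number; 1426 control and other spots were used from it.

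Ratios were turned for the dyes and averaged, and probes of a gene were averaged. Arrays of the same RNAs counted as 1 replicate, so no test or p-value was computed. Their number limits the precision. Members and lists were chosen with earlier results of these data known. From each list the text names members, their relatives, genes past 1.5-fold, and the 3 furthest on each side with one sign on both arrays. PGR, the PAQR genes, SERBP1, PTGES3, HSP90AA1, FKBP4 and FKBP5 were added after their values were seen. So were STAR, HSD3B1, TSPO, FDXR, CYP17A1, HSD17B1, HSD17B7 and the cell type markers named. Alternatives were single arrays, centring on the median, removing the median of the slide part, the table of all spots and other choices of probe or fold. Scripts were checked on simulated data. Sequences of promoters, proteins and probes were not used here.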

Additional observations from a re-analysis of the deposited data

How the results depend on the processing

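Using a single array moved each gene by exactly the ± given above, since the contrast is the mean of both arrays. Each of these shifts was larger than the SD of the negative control spots. On array 1 alone and array 2 alone, NR5A2 was at -0.74 and -1.49, NR0B1 at 0.88 and 0.59, GATA6 at -0.61 and -0.31, PGRMC1 at -0.043 and -0.93, and PGRMC2 at 0.22 and -0.37. A threshold of 1.5-fold in place of 2-fold raised the probes called from 76 to 746 and the members from 1 to 2, and asking for 2-fold on each array left 14 probes and 0 members. In the other 18 settings for the members the contrast moved by at most 0.077, for NR0B1 to 0.66 with the slide part removed. Several of these settings could not move a contrast, or barely. The table of all spots held equal values, the array medians were close to 0, and the median of 2 probes is their mean. With no replicate COCs, the values describe this pair of RNAs. No paired analysis was possible because each side held 1 COC. Signal over background was not analysed here.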
